A study of Coptotermes formosanus x Coptotermes gestroi and Coptotermes formosanus and Coptotermes gestroi with 67 samples.

Results

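Worker termites were profiled just after and just before the shedding of the old cuticle, in the body without the head and gut. The body comparison of post-molt against pre-molt workers takes 8 of the 24 expression profiles of the series, which stand for 23 of its 67 deposited samples. Their labels, body at the post-molt or pre-molt stage, decide which profiles belong to it. The post-molt side holds 4 profiles, 1 each of Hybrid F, Hybrid G, Coptotermes formosanus and Coptotermes gestroi, and the pre-molt side holds the same 4 crosses. Both hybrids are labelled as crosses of C. formosanus and C. gestroi, a pair of subterranean termite species. Every sample is RNA of the thorax and abdomen with the gut taken out, sequenced as mRNA. The labels do not say which colonies, what worker age or how many workers went into a sample. The series also holds the inter-molt bodies and the heads of the same crosses and stages, and these are used below only to place the body change.

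The deposited columns of a group were identical in each of the 24 groups, with 0 genes that differed between them, so each group was used as 1 profile. The spread between workers or colonies was therefore not measured by any p-value below. The gene tests set a change against a spread between crosses that, unless stated, was estimated with the inter-molt profiles included. The permutation test of whole-profile measures compares 4 profiles with 4 and does not pair them by cross. Totals per profile ran from 28645469 to 35404144 counts post-molt and from 19497806 to 38338701 counts pre-molt. The lowest total was that of pre-molt C. gestroi, which had 2 columns where the other 7 profiles had 3. A count of 3 corresponded to between 0.0782 and 0.154 CPM, the count per profile scaled to a common library size, over the 8 profiles. This floor covers counting error only.

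A molt is the stage at which an insect replaces its cuticle. Ecdysteroid hormones set its timing: the epidermis separates from the old cuticle, secretes a new one beneath it, digests and recovers much of the old one, and after shedding the new cuticle is expanded, hardened and darkened. Termite workers molt repeatedly as they grow, and they empty the gut beforehand, feeding again only after shedding. None of the 15950 gene IDs of the table is paired with a gene name in the files, so genes are given by their deposited IDs and no function is attached to any of them. Of the IDs, 12000 begin with Cfor and 3949 with BGI_novel.

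The body transcriptome differed between the stages at 1858 of the 13046 genes tested (14.2%; edgeR quasi-likelihood test with the cross as a block, Benjamini-Hochberg adjusted p under 0.05). Of these, 843 rose post-molt (6.46%) and 1015 fell (7.78%), and 3726 genes had an unadjusted p under 0.05. The falls were deeper than the rises. Genes that fell had a median log2 fold change of -1.35, a 2.55-fold difference, and 210 of them fell by at least 16-fold. Genes that rose had a median of 1.16, a 2.23-fold difference, and 45 rose by at least 16-fold. Placing the 5 genes of each direction that were at 0 on their whole lower side at the 3-count floor gave medians of -1.33 and 1.16. Changes of 16-fold or more that were not called numbered 43 upward and 31 downward. The number of calls depended on the profiles used: leaving out all of Hybrid F gave 332 calls, of which 94 rose and 238 fell, and DESeq2 gave 3155.

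**Figure D1:**
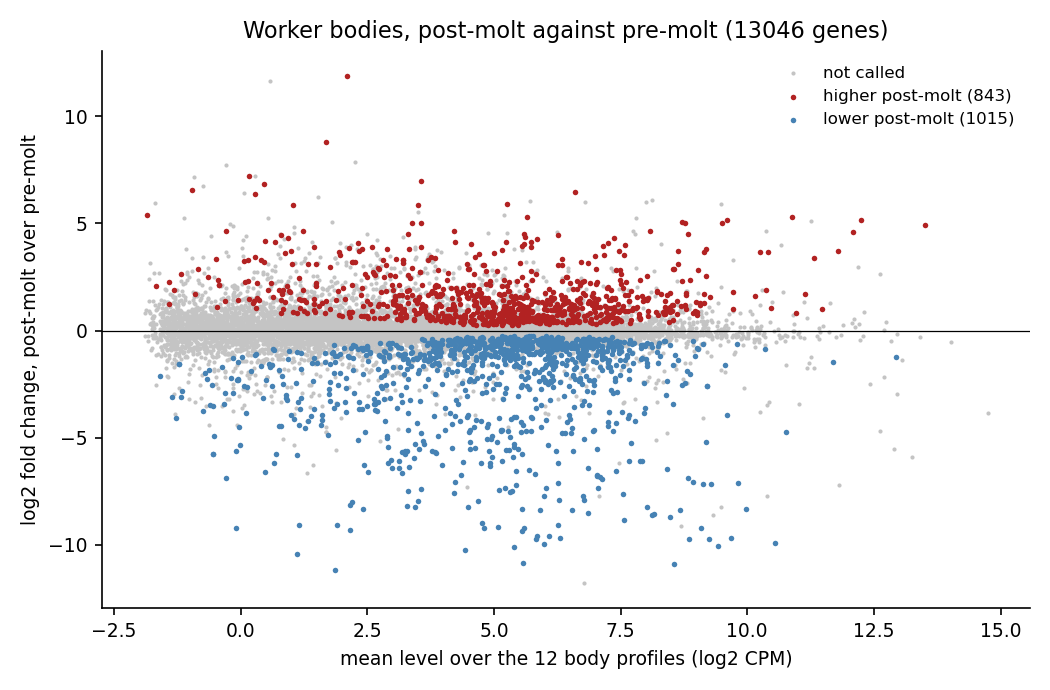
Log2 fold change of post-molt over pre-molt bodies (vertical axis) against the mean level over the 12 body profiles in log2 CPM (horizontal axis), 1 point for each of 13046 genes. The 1015 genes that fell reach changes below -10, while most of the 843 that rose lie within 5 of 0.

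The genes that fell carried a large part of the pre-molt message. The 1015 genes took 4.90% of all counts in post-molt Hybrid F, 4.95% in Hybrid G, 4.64% in C. formosanus and 4.62% in C. gestroi. Before the molt they took 13.6%, 11.8%, 18.0% and 14.5% in the same order of crosses. The post-molt mean was 4.78 ± 0.17% and the pre-molt mean 14.5 ± 2.63% (SD, n = 4 crosses each), and the groups did not overlap. Because these genes were called on the same profiles, the shares describe the size of the change and do not test it. The 210 genes that fell by at least 16-fold went furthest, with 0.0785% to 0.106% of counts post-molt against 3.26% to 8.38% pre-molt.

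The genes that rose did the reverse. They took 16.1% of counts in post-molt Hybrid F, 15.6% in Hybrid G, 16.7% in C. formosanus and 17.9% in C. gestroi. The pre-molt shares were 3.44%, 4.30%, 4.25% and 4.58% in that order of crosses. Means were 16.6 ± 0.96% post-molt and 4.14 ± 0.49% pre-molt (SD, n = 4 each). The 45 genes that rose by at least 16-fold took between 2.83% and 5.39% of post-molt counts, against 0.0183% to 0.441% of pre-molt counts. Most of this post-molt share, in each cross, was that of a single gene, BGI_novel_G002829, at 2.31% to 4.19%. The call of that gene was not firm, as described below.

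**Figure D2:**
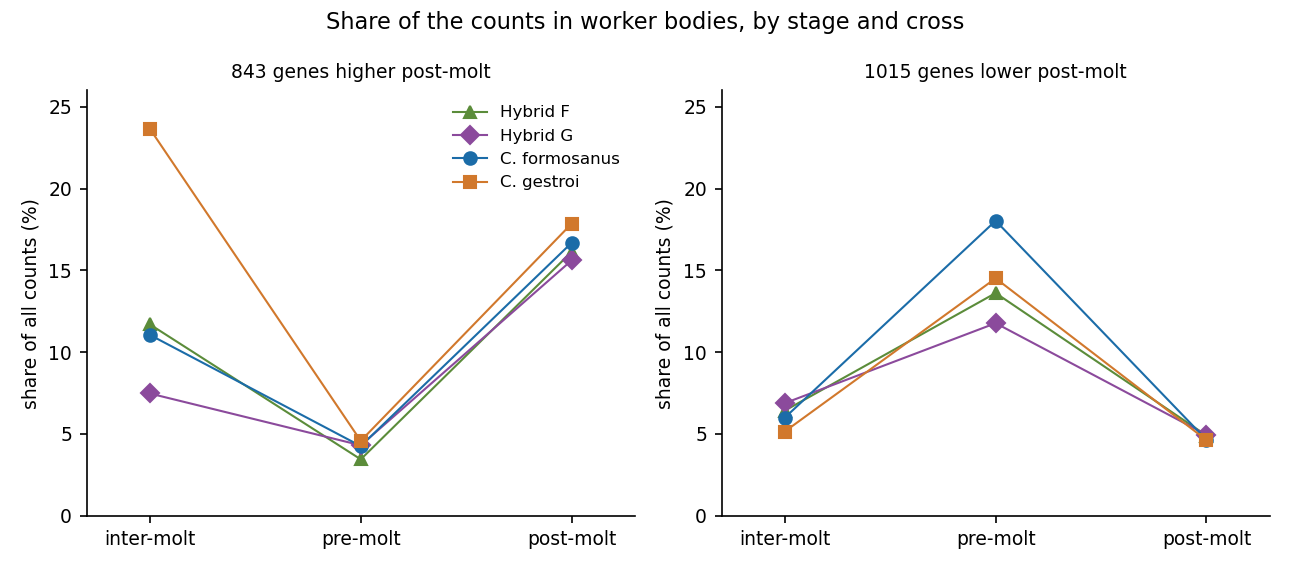
Share of all counts (vertical axis, %) taken by the genes that rose and by the genes that fell, at the inter-molt, pre-molt and post-molt stage (horizontal axis), 1 point per cross. The 843 risers take under 5% pre-molt in each of the 4 crosses, and the 1015 fallers peak pre-molt in each of the 4.

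Inter-molt bodies had no part in the contrast but shared its estimate of the spread. For the genes that fell, the inter-molt share of counts was 5.15% to 6.88%, near the post-molt level. The inter-molt mean was nearer to the post-molt than to the pre-molt mean in 769 of the 1015 (75.8%), against 54.5% of all genes tested, and lay below both in 517 (50.9%, against 37.6% of all). For the genes that rose, the inter-molt share was 11.7% in Hybrid F, 7.47% in Hybrid G, 11.1% in C. formosanus and 23.7% in C. gestroi, above the pre-molt share in each cross. Gene by gene, the inter-molt mean was nearer to the post-molt mean in 388 of the 843 (46.0%, against 54.5% of all). It was above both stages in 248 (29.4%), between them in 327 (38.8%) and below both in 268 (31.8%), where all genes tested had 37.8%, 24.6% and 37.6%. The risers thus included genes with their lowest mean between molts and genes with their highest mean there. Inter-molt C. formosanus and C. gestroi are 1 column each, with the lowest totals of the bodies, 10080438 and 9861833 counts. Membership rests on the pre-molt and post-molt levels, so these positions are a description.

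The 2 genes of each direction with the smallest adjusted p among those with a mean level of at least 3 log2 CPM and the same sign in all 4 crosses were taken as examples. Cfor_08090 stood at 0.161 CPM in post-molt Hybrid F, 0.286 in Hybrid G, 0.470 in C. formosanus and 0.207 in C. gestroi. Its pre-molt levels were 207.1, 157.9, 426.2 and 157.8 CPM in that order of crosses. It was close to the detection floor in every post-molt profile and abundant in every pre-molt one, with a log2 fold change of -9.67 ± 0.28 (SE; adjusted p = 8.8e-06, edgeR).

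BGI_novel_G002833 behaved alike. Its levels were 0.242, 0.286, 0.676 and 0.449 CPM in post-molt Hybrid F, Hybrid G, C. formosanus and C. gestroi, against 155.7, 122.9, 444.2 and 195.1 CPM pre-molt. The groups were far apart and the change was -9.05 ± 0.31 (SE; adjusted p = 1.9e-05, edgeR). C. formosanus had the highest level of both genes at both stages. Both were at most 0.0892 CPM in the 4 inter-molt bodies.

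Among the genes that rose, Cfor_04945 changed almost equally in each cross. It had 252.2 CPM in post-molt Hybrid F, 236.3 in Hybrid G, 218.5 in C. formosanus and 319.5 in C. gestroi, against 88.8, 87.1, 76.4 and 119.7 CPM pre-molt. Every cross changed by between 1.42 and 1.51 on the log2 scale, and the fitted change was 1.47 ± 0.0838, a 2.77-fold rise (SE; adjusted p = 0.00011, edgeR). Cfor_09286 had 84.4, 75.7, 58.7 and 106.3 CPM post-molt, against 7.63, 11.04, 10.7 and 18.7 CPM pre-molt, a change of 2.79 ± 0.19 (SE; adjusted p = 0.00023, edgeR). The stages did not overlap for either gene. Inter-molt bodies had 128 to 208 CPM of Cfor_04945, between the stages, and 4.08 to 10.5 CPM of Cfor_09286, in the range of its pre-molt levels or below it. The call of each of these 4 genes held under all 24 alternative fits.

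A few genes moved a measurable part of the whole library. BGI_novel_G002829 alone took 3.26% of the counts in post-molt Hybrid F, 2.31% in Hybrid G, 3.74% in C. formosanus and 4.19% in C. gestroi, and was the gene with the most counts in 3 of these 4 profiles. Before the molt it took 0.0165%, 0.164%, 0.114% and 0.281%. The change was 4.90 ± 1.20 on the log2 scale (SE; adjusted p = 0.033, edgeR), and Hybrid F changed far more than the others, by 7.23 against 3.30 to 5.03. Cfor_05875 had the next largest gain in share among the risers, at 0.967 ± 0.191% post-molt and 0.0803 ± 0.0508% pre-molt (SD, n = 4 each), a change of 3.70 ± 0.91 (SE; adjusted p = 0.034, edgeR). Neither call was firm: the adjusted p of BGI_novel_G002829 passed 0.05 in 10 of 24 alternatives, reaching 0.186, and that of Cfor_05875 in 11 of 24, reaching 0.203.

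Of the genes that fell, the largest losses of share were in Cfor_09707 and Cfor_08096. Cfor_09707 remained abundant, at 0.582 ± 0.0742% of counts post-molt and 1.10 ± 0.28% pre-molt (SD, n = 4 each). Its change was -1.22 ± 0.26 (SE; adjusted p = 0.021, edgeR), and the call was lost in 8 of 24 alternatives, with an adjusted p of up to 0.195. Cfor_08096 nearly vanished. It had 2.15 CPM in post-molt Hybrid F, 3.71 in Hybrid G, 5.38 in C. formosanus and 6.57 in C. gestroi, against 1674, 2156, 8142 and 5847 CPM pre-molt, a change of -9.89 ± 0.87 (SE; adjusted p = 0.00074, edgeR) that was called in all 24 alternatives.

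The gene with the most counts in all 4 pre-molt profiles, Cfor_09914, was not called. It took 0.435%, 0.356%, 0.364% and 0.571% of counts in post-molt Hybrid F, Hybrid G, C. formosanus and C. gestroi, against 5.91%, 6.73%, 3.23% and 8.06% pre-molt. The stages did not overlap and the change was -3.83, with an adjusted p of 0.215 in edgeR. Its inter-molt level differed widely between crosses, at 1.65% of counts in Hybrid G and at most 0.0026% in the other 3 crosses, and these profiles entered the shared estimate of the spread. Fitted on the 8 post-molt and pre-molt profiles alone, its change was -4.04 ± 0.40 (SE) with an adjusted p of 0.0059 in edgeR. This gene was chosen after its values were seen.

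**Figure D3:**
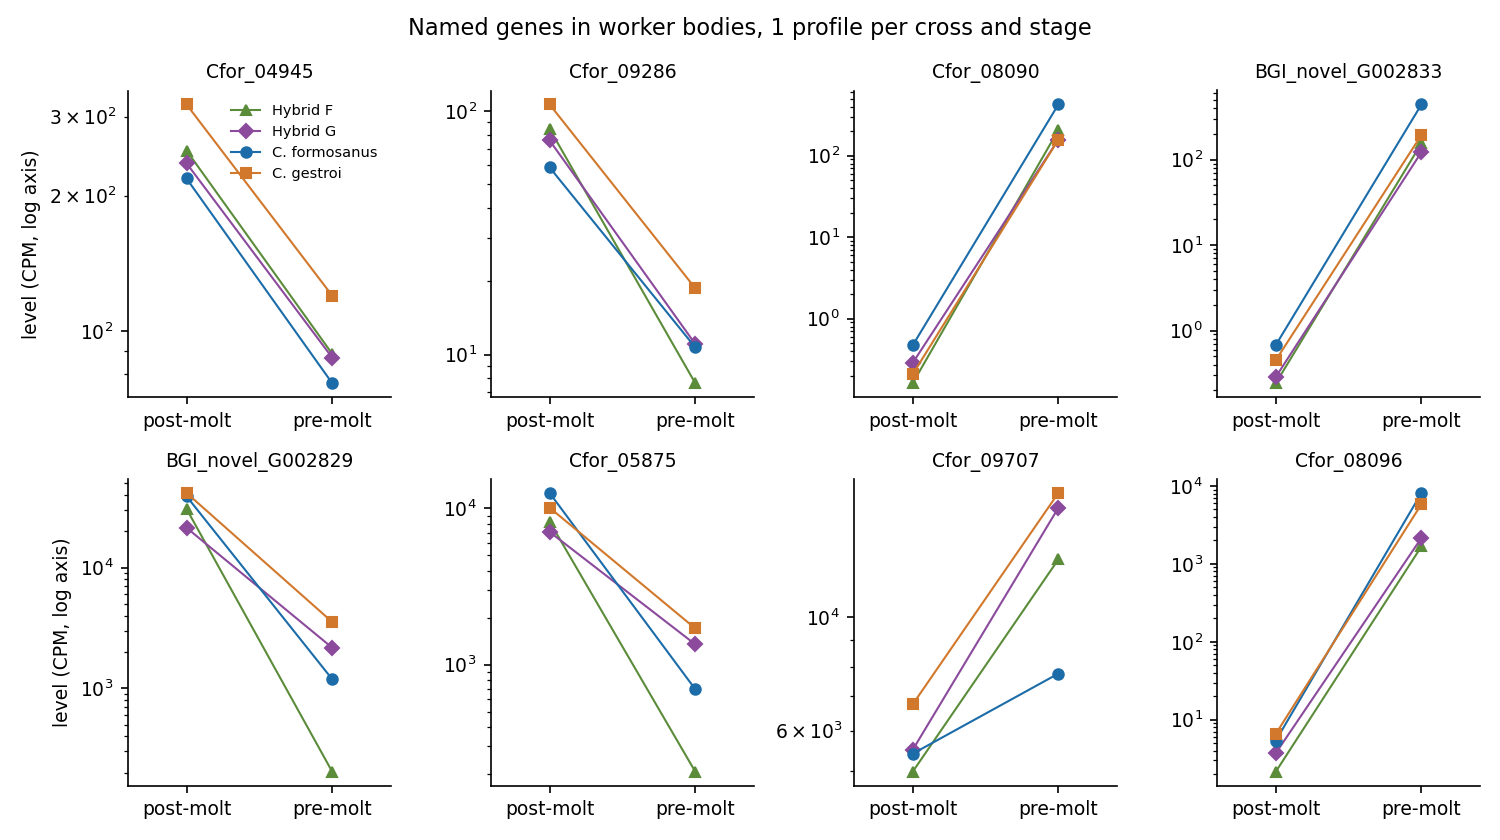
Level in CPM (vertical log axis, scaled per panel) of 8 named genes in post-molt and pre-molt bodies (horizontal axis), with a line for each cross. Post-molt and pre-molt values do not overlap in any of the 8 panels, and the lower row holds the 2 called genes per direction with the largest change in share of counts.

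Some of the deepest falls sat next to each other in the numbering of the gene IDs, 18 of the 210 of at least 16-fold in a single stretch. The longest unbroken run of called genes in the table was Cfor_08085 to Cfor_08094, in which all 10 IDs fell. Reading on past the 2 IDs with no body count, Cfor_08084 and Cfor_08095, the run extended from Cfor_08081 to Cfor_08100. All 18 tested IDs of these 20 fell by at least 16-fold, with changes from -10.10 to -4.63 and a median of -8.64. Their largest adjusted p was 0.0076 (edgeR), and post-molt and pre-molt levels did not overlap for any of the 18, where 8.11% of all genes tested were lower post-molt without overlap. The IDs on either side, Cfor_08080 and Cfor_08101, changed by -0.28 (adjusted p = 0.639) and -1.43 (adjusted p = 0.332, both edgeR). This stretch was chosen after its values were seen. The numbering is not known to follow the genome, and whether neighbouring IDs share a gene model or reads was not tested.

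Per kilobase of the deposited length, the mean levels of these 18 genes ran from 0.0137 to 1.77 CPM per kb post-molt, with a median of 0.26, against 10.5 to 1606 CPM per kb pre-molt, with a median of 40.5. In inter-molt bodies the median was 0.0291 CPM per kb. Summed, the IDs of the stretch took 0.00171% of counts in post-molt Hybrid F, 0.00187% in Hybrid G, 0.00269% in C. formosanus and 0.0024% in C. gestroi. Pre-molt they took 0.343%, 0.338%, 1.60% and 0.796%. The median change was -7.93 in Hybrid F, -7.28 in Hybrid G, -8.57 in C. formosanus and -8.28 in C. gestroi. All 18 were called without Hybrid G, without C. formosanus or without C. gestroi, and 15 were called without Hybrid F. Deposited lengths ran from 789 to 8763 bases, and 9 of the 18 were under 1100 bases.

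**Figure D4:**
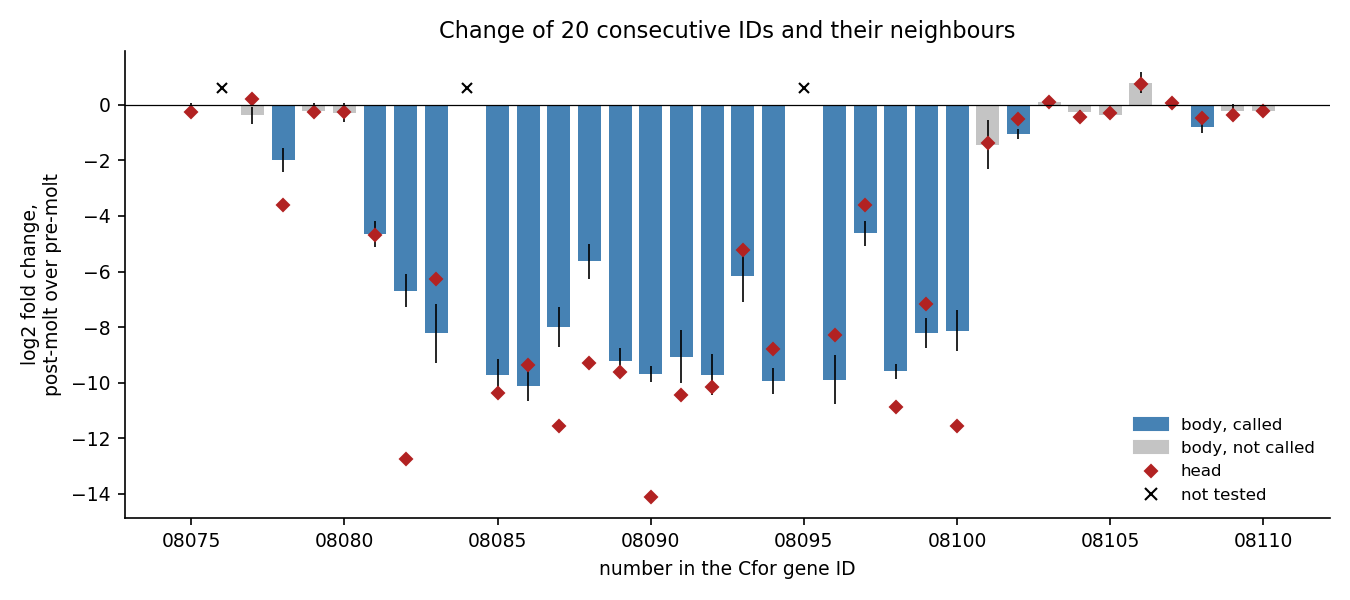
Log2 fold change of post-molt over pre-molt (vertical axis) for Cfor IDs in number order (horizontal axis): bars are bodies with their SE, blue where called, diamonds are heads, and crosses mark IDs not tested. All tested IDs from Cfor_08081 to Cfor_08100 lie at or below -4.63 in the body and below -3.6 in the head.

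Calls in the same direction also neighboured each other over the whole table. Of the Cfor genes that fell and had a tested neighbour, 27.6% (220 of 798) had a neighbour that also fell, against 13.8% of all Cfor genes with a tested neighbour. Without the stretch from Cfor_08081 to Cfor_08100 these were 25.9% (202 of 780) and 13.6%. For Cfor genes that rose the share was 15.0% (96 of 638), near the 11.5% of all. Among BGI_novel genes it was 37.7% (60 of 159) for those that fell and 33.5% (55 of 164) for those that rose, against 7.64% and 8.10%. Runs of at least 3 called IDs numbered 20 among the 854 falling Cfor genes, the runs of that stretch included, and 8 among the 678 rising ones. For BGI_novel genes they numbered 7 among the 161 that fell and 6 among the 165 that rose.

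The genes called were more abundant and slightly longer than the rest. In the 3262 genes of lowest mean level 2.61% of genes rose and 3.10% fell, and in the 3262 of highest level 10.1% rose and 12.3% fell. Median lengths were 3451 bases for genes that rose and 3643 for genes that fell, against 2977 for all tested. BGI_novel genes were called less often than Cfor genes (4.69% rose and 4.57% fell, against 7.12% and 8.97%), but their median level was 2.05 log2 CPM against 4.83. Among the 3262 genes of highest level, the shares were 11.4% and 13.7% for BGI_novel genes, against 10.04% and 12.2% for Cfor genes.

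Of 4 measures of the whole profile, none passed the threshold, in a design that leaves little room for it. The 10 genes with the most counts took 14.1 ± 1.02% of counts post-molt and 20.2 ± 3.78% pre-molt (SD, n = 4 each), lower in 4 of 4 crosses. In a two-sided exact permutation test over 4 against 4 profiles this gave p = 0.0571, or 0.229 adjusted over 4 measures, where the smallest p the design allows is 0.0286. An exact sign-flip test over the 4 crosses, which pairs the stages, gave its smallest possible p, 0.125. The number of genes with a count was 14230 ± 270 post-molt and 14020 ± 448 pre-molt (SD, n = 4 each; exact permutation p = 0.543). The share of counts in BGI_novel genes was 16.4 ± 1.86% post-molt and 15.99 ± 1.25% pre-molt (exact permutation p = 0.657), and the count-weighted gene length was 3637 ± 242 bases post-molt and 3335 ± 285 bases pre-molt, higher in 4 of 4 crosses (exact permutation p = 0.114; exact sign-flip p = 0.125, again the smallest possible).

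Most of the body change was also present in the head. The same test over the 12 head profiles called 3396 of 12845 genes (26.4%). Of the body risers, 772 were tested in the head; 515 of these (66.7%) rose there and 15 fell, against 13.4% of all genes tested in both that rose. Of the body fallers, 1005 were tested in the head; 733 (72.9%) fell there and 10 rose, against 13.4% of all that fell. The median head change was 0.75 for body risers and -0.94 for body fallers, smaller than the body medians of 1.07 and -1.33 over the same genes. These genes were called on their body values, which favours large body changes, so the medians do not show a weaker change in the head. All 18 tested IDs of the stretch from Cfor_08081 to Cfor_08100 were called lower in the head, with changes from -14.09 to -3.62. Across the 12538 genes tested in both, the correlation of the 2 changes was 0.78 (Pearson) and 0.58 (Spearman), a description across genes, which are not independent. Heads and bodies of a cross and stage may come from the same workers.

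The size of the change differed between body and head at 456 of 13534 genes (3.37%; edgeR quasi-likelihood test of the difference, adjusted p under 0.05), with 188 more positive in the body (1.39%) and 268 more negative (1.98%). Of the 438 that were fitted in both tissues, 234 changed in the same direction in both and differed in size, while 97 had a positive change in the body and a negative one in the head, and 107 the reverse. In 25 genes opposite changes were called in both tissues. This count was unstable: leaving out post-molt Hybrid F bodies gave 97 genes, the lowest of the single profiles, and the fit without the block of cross by stage gave 186.

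Cfor_07651 was a clear case of opposite change. In the body it had 0.806 CPM in post-molt Hybrid F, 0.486 in Hybrid G, 0.705 in C. formosanus and 1.11 in C. gestroi, against 25.5, 23.8, 43.0 and 73.5 CPM pre-molt. In the head it had 133.6, 152.5, 77.5 and 207.3 CPM post-molt, against 29.3, 57.6, 57.7 and 111.4 CPM pre-molt. The body change was -5.69 ± 0.62 (SE; adjusted p = 0.0017), the head change 1.17 ± 0.30 (SE; adjusted p = 0.022) and the difference, body minus head, -6.86 ± 0.41 (SE; adjusted p = 0.00022, all edgeR).

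Cfor_07958 fell in both tissues but far more in the head. Its body levels were 1.80, 3.29, 1.35 and 1.14 CPM in post-molt Hybrid F, Hybrid G, C. formosanus and C. gestroi, against 13.7, 15.6, 24.5 and 11.9 CPM pre-molt. In the head it had 0.098, 0.399, 0.123 and 0.367 CPM post-molt, against 2294, 1622, 1631 and 1633 CPM pre-molt. The body change was -3.18 and the head change -12.94, a difference of 9.80 ± 0.41 (SE; adjusted p = 5.0e-05, edgeR). BGI_novel_G003157 had no more than 0.525 CPM in any post-molt or pre-molt body and no more than 0.176 CPM in any post-molt head. Pre-molt heads had 241.6 to 527.9 CPM of BGI_novel_G003157, and its difference was 14.28 ± 0.55 (SE, adjusted p = 5.0e-05, edgeR). It was too low in bodies to enter the body test. It was at 0 CPM in pre-molt Hybrid F bodies and in post-molt C. formosanus heads, so the size of its difference rests on few reads. Without the block of cross by stage the difference was 12.66. For Cfor_11986, the difference was -1.66 ± 0.0972 (SE; adjusted p = 0.00022, edgeR), with a body change of -1.96 (adjusted p = 0.053) and a head change of -0.29, and without the block of cross by stage its adjusted p was 0.429.

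Among genes with far higher levels in bodies than in heads, the body calls were upward with 1 exception. From the inter-molt profiles alone, which are not part of the contrast, 338 tested genes had a mean level at least 16-fold higher in the 4 bodies than in the 4 heads. Of these body-restricted genes, 93 rose post-molt (27.5%, against 6.46% of all genes tested) and 1 fell (0.296%, against 7.78%). The fitted change was positive in 92.0% of the 338 and 50.3% of all genes, with medians of 2.50 and 0.0032 on the log2 scale. The class was defined after the results were seen. The 37 genes restricted to the head by the same measure held 2 that rose and 5 that fell. The labels state that the gut was removed from every body; with no gene names, which tissue these genes belong to was not tested, and fewer cells of a type and less RNA per cell cannot be told apart.

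The median change of the body-restricted genes, most of which were not called, was larger in the hybrids. It was 3.66 in Hybrid F and 4.10 in Hybrid G, against 0.68 in C. formosanus and 1.54 in C. gestroi. At least 16-fold rises numbered 141 in Hybrid F and 173 in Hybrid G, against 14 in C. formosanus and 13 in C. gestroi. The call count rested on Hybrid F. It was 43 without Hybrid G, without C. formosanus or without C. gestroi, 12.7% to 13.0% of the class. Over all genes, 397 of 13091, 393 of 13048 and 653 of 13180 rose in these fits. Without Hybrid F the count was 2 (0.592% of the class), where 94 of all 12962 genes rose. The class thus had no larger share of risers than all genes in that fit, and its median change there was 2.31. Choosing the class without the inter-molt profiles of any 1 cross gave 86 to 101 that rose.

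As shares of the library, the 93 body-restricted risers took 0.733% of counts in post-molt Hybrid F, 0.905% in Hybrid G, 0.966% in C. formosanus and 2.17% in C. gestroi. Pre-molt they took 0.0234%, 0.0214%, 0.149% and 0.38%. In inter-molt bodies they took 4.19%, 1.02%, 3.09% and 16.9%, so that each cross was lowest before the molt and had its highest share between molts. High inter-molt levels chose the class and the body calls chose the 93, so this order is a description. Summed over the whole class of 338, the share of counts gave another order of crosses than the medians. It was 2.23% post-molt against 2.55% pre-molt in Hybrid F and 2.80% against 2.50% in Hybrid G, while it was 2.36% post-molt against 1.61% pre-molt in C. formosanus and 5.81% against 2.999% in C. gestroi. BGI_novel_G003407, BGI_novel_G003408 and Cfor_09912, 3 genes of the class chosen for their pre-molt shares, together took a smaller share post-molt in each cross. They took 0.579% of counts in post-molt Hybrid F against 2.41% pre-molt, and 0.685% in post-molt Hybrid G against 2.37% pre-molt. In C. formosanus they took 0.618% post-molt against 0.997% pre-molt, and in C. gestroi 0.326% against 1.80%. Taken singly, Cfor_09912 went the other way in C. formosanus, at 0.164% post-molt against 0.140% pre-molt. So did BGI_novel_G003408 in C. gestroi, at 0.0468% against 0.0438%. None of the 3 was called (adjusted p = 0.109, 0.206 and 0.541, edgeR).

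The 2 body-restricted risers with the smallest adjusted p, chosen after their values were seen, show the pattern. BGI_novel_G000748 had 132.3 CPM in post-molt Hybrid F, 142.0 in Hybrid G, 305.7 in C. formosanus and 421.4 in C. gestroi, against 5.16, 4.20, 34.2 and 38.8 CPM pre-molt. Its inter-molt levels were 314.7, 96.9, 246.6 and 554.9 CPM, and no head profile exceeded 2.49 CPM. Its change was 3.99 ± 0.53 (SE; adjusted p = 0.0036, edgeR). Cfor_02950 had 35.5, 35.3, 69.4 and 90.8 CPM post-molt, against 3.16, 3.20, 12.8 and 24.2 CPM pre-molt, a change of 2.79 ± 0.37 (SE; adjusted p = 0.0037, edgeR). For both genes the hybrids were lower than the parental species at both stages, most so before the molt.

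**Figure D5:**
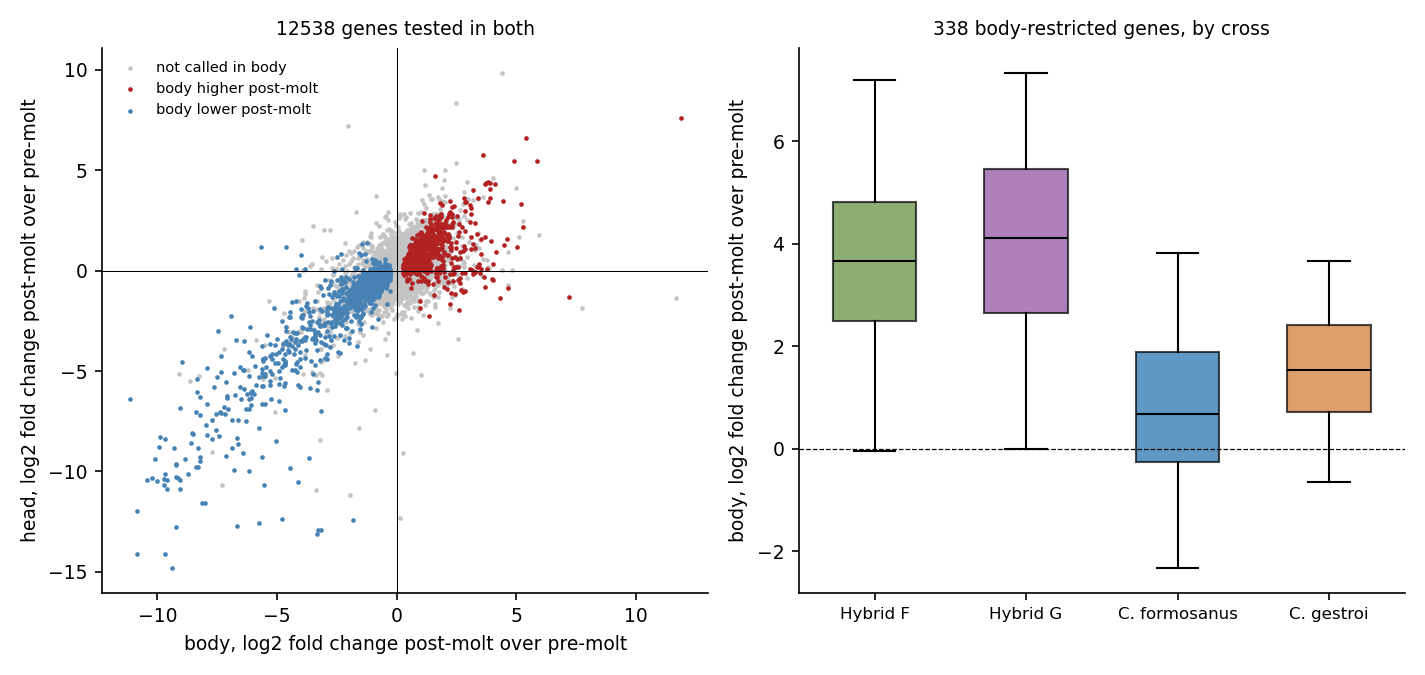
Left, head against body log2 fold change of post-molt over pre-molt for the 12538 genes tested in both. Right, body log2 fold change of the 338 body-restricted genes in each cross, where boxes span the quartiles, the line is the median and whiskers run from percentile 5 to percentile 95; medians are 3.66 and 4.10 in the hybrids and 0.68 and 1.54 in the parental species.

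The size of the change also varied between crosses. Over all genes, at least 16-fold rises numbered 226 in Hybrid F and 255 in Hybrid G, against 69 in C. formosanus and 111 in C. gestroi, and at least 16-fold falls numbered 233 and 231 in the hybrids, against 289 and 279 in the parental species. The excess of rises in the hybrids lay in the body-restricted genes: over the 12670 genes restricted to neither tissue, such rises numbered 84 in Hybrid F and 82 in Hybrid G, against 55 in C. formosanus and 98 in C. gestroi. Across genes, the correlation of the log2 fold changes was 0.81 between the hybrids, 0.56 between the parental species and 0.58 to 0.69 for a hybrid with a parental species (Pearson). All 4 crosses changed in the called direction for 823 of the 843 risers and 1005 of the 1015 fallers, where 20.3% and 21.0% of all genes tested had 4 changes of that sign. A test blocked on cross selects such genes, so these counts describe the calls. Post-molt and pre-molt levels did not overlap for 459 of the risers and 751 of the fallers, where 6.06% and 8.11% of all genes tested had such non-overlap in those directions.

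Calls made on 3 crosses were then compared with the change in the cross left out. Of the genes called without Hybrid F, 94 of 94 risers and 238 of 238 fallers changed in the same direction in Hybrid F, with median changes there of 1.45 and -3.26. Without Hybrid G the counts were 384 of 397 and 615 of 622, with medians of 1.07 and -2.20 in Hybrid G. Without C. formosanus they were 371 of 392 and 499 of 520, with medians of 1.10 and -1.75. Without C. gestroi they were 593 of 652 and 779 of 854, with medians of 0.83 and -1.09. Over all genes of these fits, 49.1% to 50.2% rose and 48.0% to 50.2% fell in the cross left out. The profiles left out had no part in the calls. The hybrids are labelled as crosses of both species, however, so the crosses are not independent of each other.

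The difference between hybrids and parental species in the stage change was tested directly. No gene was called (0 of 13046, 0%; edgeR quasi-likelihood test, 4 residual degrees of freedom), with a smallest adjusted p of 0.591 and 551 genes at an unadjusted p under 0.05. DESeq2 called 125 genes on the same contrast, 106 of them with the more positive change in the hybrids. Among the 338 body-restricted genes the median difference, hybrids minus parental species, was 3.29 on the log2 scale, against 0.01 over all genes. Of the 551 genes at an unadjusted p under 0.05, 152 were body-restricted, 45.0% of that class against 4.22% of all genes tested, and 151 of the 152 had the more positive change in the hybrids. None of them passed the adjusted threshold in edgeR. The class was defined after the results were seen, from inter-molt profiles that also entered this fit. Genes are not independent of each other, so these counts within the class are a description and do not test a difference between hybrids and parental species.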

How the data were processed

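RNA of worker bodies was sequenced with an mRNA library kit, per the labels' protocols. The deposited table gives expected counts per gene; per the submitters' processing notes the tools were Bowtie2, RSEM and DESeq2, and no version, genome build or annotation is given in the sources used here. Those deposited expected counts were not normalized; 31.0% of cells of the 8 profiles were not whole and 8.64% were NA. NA was read as 0 and counts were rounded to whole numbers. Each group was 1 profile. The fit used edgeR 4.0.16 in R 4.3.3 (TMM scaling, filterByExpr by stage, quasi-likelihood test) on 12 body profiles with cross and stage as terms and 6 residual degrees of freedom; inter-molt profiles shared the estimate of the spread. The same model served heads, and a model of all 24 profiles with a block of cross by stage tested body against head. SE is the log2 fold change divided by the root of F. CPM were scaled by TMM factors, and changes per cross used log2 CPM with a prior count of 2. DESeq2 1.42.0, limma 3.58.1 (voom), RLE scaling, no filter, left-out profiles and crosses, and thinned counts were alternatives. The scripts were tested on simulated data. Named genes were the 2 per direction with the smallest adjusted p at a mean of at least 3 log2 CPM and, in the body, the same sign in 4 crosses, and the 2 called genes per direction with the largest change of share. The comparison, with its members, and the lists were chosen with earlier results of these data known; within it, the labels placed each profile. Fly symbols for 8 gene lists and for cell type markers matched 0 IDs and gave no count, so the labelled tissue could not be checked against markers.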

Additional observations from a re-analysis of the deposited data

Results flagged for a closer look

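Among the 4 pre-molt body profiles, that of C. gestroi stood apart in the number of genes with a count, with its gap to the nearest profile at 0.867 of the whole range; it is also the profile with 2 columns and the lowest total. Chance singles out about 1 in 20 groups of this size in this way. The post-molt minus pre-molt change differed between body and head at 456 genes in the test of the difference. The named ones were BGI_novel_G003157 with a body minus head difference of 14.28 on the log2 scale, Cfor_07958 with 9.80, Cfor_11986 with -1.66 and Cfor_07651 with -6.86. Levels of BGI_novel_G003157, Cfor_07958 and Cfor_07651 are given with the comparison of body and head, and for Cfor_11986 only its changes are.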

How the results depend on the processing

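No paired analysis was possible because replicate numbers carry no information where the columns of a group are identical; this concerns those numbers only, since the stages were paired by cross in the gene tests and in the sign-flip test. For the 1858 body calls, DESeq2 gave 3155, no cross term 788, and leaving out a cross gave 913 without C. formosanus, 332 without Hybrid F and 1024 without Hybrid G; single left-out profiles gave 785 to 2035, with the count more than 1.5 times lower without the post-molt or pre-molt profile of Hybrid F (785 and 827), Hybrid G (924 and 1217) or C. formosanus (1125 and 1197). RLE scaling (1870), no filter (1688), thinning (1739), limma-voom (2394), no genes with NA (1894), no C. gestroi (1510) and the 8 profiles alone (1908, 1476 of them shared with the same sign) stayed within 1.5 times. For the 456 genes that differed between body and head, DESeq2 gave 1188, no block of cross by stage 186, and single left-out profiles 97 to 620; leaving out any 1 post-molt or pre-molt profile of either tissue gave 97 to 264, and either inter-molt Hybrid F profile 278 or 284. For hybrids against parental species (0 genes), DESeq2 gave 125, and single left-out profiles 0 to 8, with 8 without post-molt Hybrid F bodies. Head calls stayed within 1.5 times of 3396 in all alternatives run. The difference in genes with a count, post-molt minus pre-molt, ranged from -4.83 to 319 with 1 profile left out, and turned negative without pre-molt C. gestroi; that in the BGI_novel share ranged from -0.157 to 1.17 percentage points, and turned negative without pre-molt C. gestroi (-0.157), post-molt C. formosanus (-0.0353) or post-molt C. gestroi (-0.0995). The cause of these shifts was not tested. For the body-restricted genes, alternatives were chosen after seeing the data: the 8 profiles alone gave 72 that rose, and a 4-fold rule gave 166 of 833 that rose and 38 that fell, with a median change of 1.28 against 2.50. At the lowest depth of the 8 post-molt and pre-molt bodies, 3 counts were 0.154 CPM, and in inter-molt C. gestroi bodies they were 0.304 CPM. Levels in the text below these floors rest on few reads.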

Other observations

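In 136 of the 13046 genes tested the body change was at least 4-fold upward in 1 cross and at least 4-fold downward in another. None of the 136 was called (0 genes). Each such change compares 1 profile with 1 profile, so whether the direction differs between crosses was not tested. The change of a called gene varied between crosses about as much as that of any gene. The median SD of the 4 changes was 0.367 on the log2 scale for the genes that rose and 0.396 for those that fell. Over all genes tested it was 0.349. The called genes were chosen by a test that uses this spread and lie at higher levels, so the comparison is a description.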
